A study of Mus musculus with 10 samples.

Results

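Wnt signaling was followed in whole mouse lungs through 10 genes chosen by name: the ligands Wnt2, Wnt4, Wnt5a, Wnt5b and Wnt7b, the secreted modulators Sfrp1, Dkk2 and Rspo3, and the target genes Axin2 and Lef1. They are 10 of the 54532 genes in the deposited table. The question was how RNA of these genes differed between lungs that received more blood through a surgical shunt and lungs that did not. The IncPBF group (increased pulmonary blood flow) held 5 lungs of wild-type mice in which the wall between the abdominal aorta and the inferior vena cava was pierced at postnatal day 7 (P7). The sham group held 5 lungs of wild-type mice with the same anesthesia and opened abdomen and no puncture. All lungs were taken at P14, and the labels give no difference in genotype, transgene or drug between the groups. The labels do not say whether the pups came from separate litters, so p values measure the spread between these lungs only.

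Wnt ligands are secreted, lipid-modified proteins. In the beta-catenin branch they bind a Frizzled receptor together with Lrp5 or Lrp6, beta-catenin escapes degradation, and it acts with TCF/LEF factors on targets such as Axin2. Other branches, for which Wnt5a and its receptor Ror2 are best known, act without beta-catenin on cell polarity and movement. In the lung, Wnt2 is a mesenchymal ligand that acts together with Wnt2b when the organ forms, Wnt7b is an epithelial one, Wnt5a is made largely in mesenchyme, and Axin2 marks alveolar cells that respond to Wnt.

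Values are FPKM, in which the fragment count of a gene is divided by gene length and library size, so levels of different genes can be compared on this scale. The lungs had 16103423 to 20318525 fragments on genes. Differences are IncPBF minus sham on log2(FPKM + 0.1), from limma with Benjamini-Hochberg adjustment over the 15388 genes with a mean of at least 0.5 FPKM, and a gene is called at an adjusted p under 0.05. Some facts of the whole series touch the results. IncPBF lungs 2 to 5 had 52.4 to 66.5 FPKM of Xist, which coats the inactive X chromosome, and IncPBF lung 1 and the sham lungs had at most 0.0770 FPKM, and the Y-linked gene Ddx3y was at most 0.00926 FPKM in IncPBF lungs 2 to 5, 18.6 FPKM in IncPBF lung 1 and 21.8 to 24.6 FPKM in every sham lung. The group and sex-linked expression thus coincide in all lungs but IncPBF lung 1, and genes called are also given with log2 Xist as a covariate. In that fit only IncPBF lung 1 separates the group from Xist. The difference with the covariate therefore rests mainly on that 1 lung against the sham lungs and is no independent check. Sham lung 5 had 139.9 FPKM summed over 3 airway secretory markers against at least 5016 FPKM in every other lung. The samples are whole lung, with Sftpc of alveolar type 2 cells at 9583 to 14074 FPKM and Pecam1 of endothelium at 123 to 183 FPKM, and in such tissue more cells of a type and more RNA per cell cannot be told apart.

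Wnt5a and Wnt2 were upregulated in the IncPBF group, Sfrp1 was downregulated, and Wnt4, Wnt5b, Wnt7b, Axin2 and Lef1 were not called. These were 3 of the 8 Wnt genes tested, or 37.5%, beside 32.3% of all genes tested, 16.1% higher and 16.2% lower. Dkk2 and Rspo3 were under the expression minimum and were not in this test. The median difference of the 8 genes was 0.19 on the log2 scale, beside 0.01 over all genes tested. The median size of the difference, without sign, was 0.26 beside 0.20. With log2 Xist as a covariate, 2 of the 8 remained called, Wnt5a and Wnt2, beside 4.82% of all genes. Without sham lung 5 the count was 3, beside 4081 of all 15388 genes tested. In IncPBF lung 1 alone against the 5 sham lungs the differences were 1.34 for Wnt5a, 0.71 for Wnt2 and -1.04 for Sfrp1. These are close to the 1.30, 0.73 and -1.01 of the fit with the covariate, which rests mainly on the same lung.

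**Figure D1:**
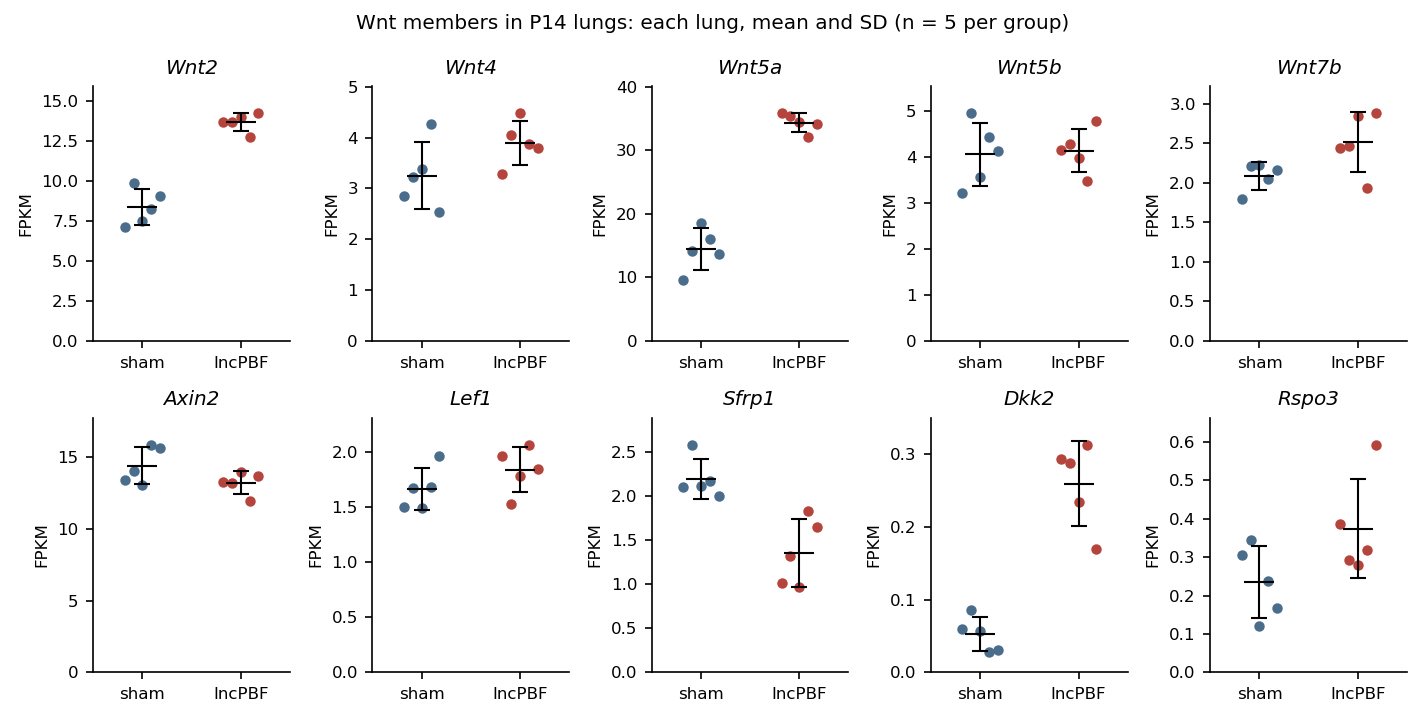
FPKM of the 10 Wnt genes in each lung (points), with the mean and SD of the 5 sham and 5 IncPBF lungs, each panel on its own axis from 0. The groups stand apart for Wnt2, Wnt5a, Sfrp1 and Dkk2 and overlap for the other 6 genes. Groups stood apart for 23.2% of all genes tested, a set without Dkk2 and Rspo3.

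Wnt5a (ENSMUSG00000021994) is the ligand best known for signaling without beta-catenin. The gene lies on the plus strand of chr14:28504750-28527448 (GRCm38), and its 2 coding transcripts have 5 exons each. In IncPBF lungs 1 to 5 it was 35.8, 35.4, 34.4, 32.0 and 34.1 FPKM. In sham lungs 1 to 5 it was 9.63, 14.2, 18.6, 16.1 and 13.7 FPKM. The lowest IncPBF lung was well above the highest sham lung, and the groups did not overlap. The mean rose from 14.4 ± 3.31 to 34.3 ± 1.48 FPKM (SD, n = 5 each), a ratio of 2.38. The difference was 1.27 on the log2 scale (95% interval 0.97 to 1.58, limma adjusted p = 9.11e-05), and 2.22% of the genes tested had a difference at least as large in size. An exact two-sided permutation test over the 252 assignments of the lungs gave p = 0.00794, the smallest it allows. Relative spread was 4.32% of the mean in the IncPBF lungs and 22.9% in the sham lungs, where lung 1 was low and lung 3 high. With log2 Xist as a covariate the difference was 1.30 (limma adjusted p = 0.0197). IncPBF lung 1, the one without Xist, had the highest value of all 10 lungs.

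Wnt2 (ENSMUSG00000010797, minus strand, chr6:17988940-18030585) is the mesenchymal ligand of early lung development, with 5 exons. IncPBF lungs 1 to 5 had 13.7, 13.7, 13.99, 12.7 and 14.2 FPKM. Sham lungs 1 to 5 had 7.12, 9.89, 7.49, 8.24 and 9.04 FPKM. All IncPBF lungs were above all sham lungs. The mean rose from 8.35 ± 1.13 to 13.7 ± 0.562 FPKM (SD, n = 5 each), a ratio of 1.63 and a log2 difference of 0.71 (95% interval 0.53 to 0.90, limma adjusted p = 0.000149, exact two-sided permutation p = 0.00794). With the Xist covariate it was 0.73 (limma adjusted p = 0.0272). Groups that stood apart in this way were found for 3 of the 8 Wnt genes tested and for 23.2% of all genes tested.

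The other ligands were between 1.80 and 4.94 FPKM in every lung and their groups overlapped. Wnt4 (plus strand, chr4:137277489-137299726), a ligand used in kidney and gonad development, was 3.29, 4.06, 4.48, 3.87 and 3.79 FPKM in the IncPBF lungs and 2.84, 3.23, 3.38, 4.27 and 2.53 FPKM in the sham lungs. Sham lung 4 lay above 4 of the 5 IncPBF lungs. The log2 difference was 0.27 (95% interval -0.02 to 0.55, limma adjusted p = 0.135). It was 0.37 (adjusted p = 0.0260, limma) without sham lung 4 and 0.02 with the Xist covariate, where IncPBF lung 1 is the lowest of its group.

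Wnt7b (minus strand, chr15:85535437-85582473), the epithelial ligand, was 2.44, 2.46, 2.85, 1.94 and 2.88 FPKM in the IncPBF lungs and 1.80, 2.21, 2.22, 2.05 and 2.16 FPKM in the sham lungs. IncPBF lung 4 lay within the sham range, and the other 4 lungs were above it. The difference was 0.25 (95% interval -0.00060 to 0.50, limma adjusted p = 0.117). Leaving out IncPBF lung 4 gave 0.33 (limma adjusted p = 0.0294), and scaling each lung to an equal total gave 0.32 (adjusted p = 0.0406). Quantile normalization gave 0.19 (limma adjusted p = 0.246) and the Xist covariate 0.22 (limma adjusted p = 0.585). Wnt5b (minus strand, chr6:119432531-119544347), the closest relative of Wnt5a, was 4.15, 4.28, 3.98, 3.47 and 4.77 FPKM against 3.21, 4.94, 3.56, 4.42 and 4.11 FPKM in the sham lungs. The 2 group ranges were nearly the same, and the difference was 0.04 (95% interval -0.23 to 0.30, limma adjusted p = 0.841), or 0.07 with the Xist covariate (limma adjusted p = 0.889).

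Among the 10 genes, Wnt5a stood highest in both groups. In the sham lungs its range overlapped those of Axin2 (14.4 ± 1.27 FPKM) and Wnt2, and Axin2 and Wnt2 were apart. In the IncPBF lungs Wnt5a was above every other gene, and Wnt2 and Axin2 overlapped. Wnt5b and Wnt4 followed with overlapping ranges in both groups. Next came Wnt7b, Lef1 and Sfrp1 in the IncPBF lungs and Sfrp1, Wnt7b and Lef1 in the sham lungs, where neighbors overlapped, and Rspo3 and Dkk2 came last. Wnt5a, Axin2, Wnt5b, Wnt7b, Lef1 and Rspo3 each overlap another annotated gene, and whether counting used the strand is not given in the sources used here, so reads of the overlapping genes cannot be told apart.

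The tested genes whose centered log2 profile over the 10 lungs was closest to that of Wnt5a were Lhfpl2, Tgfb3 and Capn6, with root mean square distances of 0.0893, 0.115 and 0.119. These profiles keep the difference between the groups, so a close gene shares much of that difference by construction. Tgfb3, a ligand of the TGF-beta family, had a mean of 48.7 FPKM in the IncPBF lungs and 22.9 FPKM in the sham lungs. For Wnt2 the closest were Ablim3, Plekha6 and Dctpp1, at 0.0910, 0.0918 and 0.101. Ablim3 had a mean of 27.7 FPKM in the IncPBF lungs and 17.6 FPKM in the sham lungs.

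The list also held 14 further Wnt ligands, of which 6 were abundant enough to test. Wnt11, another ligand tied mainly to cell movement, was 25.5, 28.6, 30.7, 28.8 and 22.1 FPKM in the IncPBF lungs and 3.97, 7.03, 10.02, 8.16 and 5.61 FPKM in the sham lungs. The groups were far apart, and the log2 difference of 2.01 (SE 0.21, limma adjusted p = 6.42e-05) was larger than that of Wnt5a. It was 1.87 with the Xist covariate (limma adjusted p = 0.0212). Wnt2b, the close relative of Wnt2, went the other way, from 0.954 ± 0.228 to 0.472 ± 0.0737 FPKM (SD, n = 5 each), a log2 difference of -0.86 (limma adjusted p = 0.00666, and 0.190 with the Xist covariate). Wnt10b was 9.76 ± 0.555 FPKM in the IncPBF lungs and 8.82 ± 0.926 FPKM in the sham lungs and was not called (adjusted p = 0.149, limma).

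Summed over the 19 Wnt ligands in the list, ligand RNA reached 109.9 to 118 FPKM in IncPBF lungs, against 57.7 to 73.4 FPKM in sham lungs. Without Wnt5a and Wnt11 the sums were 48.6 to 54.1 and 44.1 to 51.0 FPKM, which overlap. Wnt5a was 29.0% to 32.6% of the ligand sum in IncPBF lungs, against 16.7% to 25.4% in sham lungs. Wnt11 was 20.1% to 26.4% against 6.89% to 13.6%. Wnt2 held 11.5% to 12.9% of the sum in IncPBF lungs, against 10.2% to 13.7% in sham lungs, so its share stayed inside the sham range while its level was higher.

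**Figure D2:**
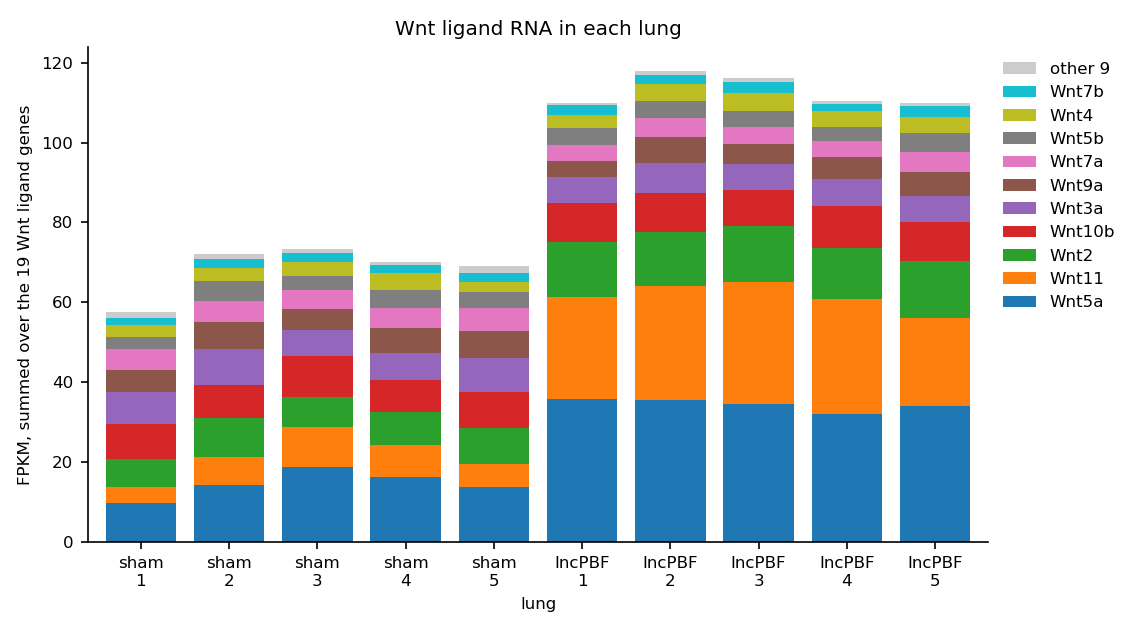
FPKM of the 19 Wnt ligand genes stacked for each lung, in sham lungs 1 to 5 and IncPBF lungs 1 to 5, with the 9 least abundant ligands together. The IncPBF stacks reach 109.9 to 118 FPKM and the sham stacks 57.7 to 73.4 FPKM, and the Wnt5a and Wnt11 segments are the ones that differ most in height.

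Of the secreted modulators, Sfrp1 (ENSMUSG00000031548, plus strand, chr8:23411502-23449632, 3 exons) encodes a soluble protein with a Frizzled-like domain that binds Wnt ligands. IncPBF lungs 1 to 5 had 1.02, 1.32, 0.966, 1.83 and 1.65 FPKM. Sham lungs 1 to 5 had 2.10, 2.59, 2.11, 2.18 and 2.01 FPKM. The groups did not overlap, but IncPBF lung 4 at 1.83 FPKM came close to sham lung 5 at 2.01 FPKM. The mean fell from 2.20 ± 0.225 to 1.36 ± 0.381 FPKM (SD, n = 5 each), a log2 difference of -0.69 (95% interval -1.06 to -0.32, limma adjusted p = 0.00957, exact two-sided permutation p = 0.00794). With the Xist covariate it was -1.01 and no longer called (limma adjusted p = 0.0659), and with a pseudocount of 1 it was -0.45 and still called. These values rest on 78 to 150 fragments per IncPBF lung and 153 to 213 per sham lung.

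Dkk2 (ENSMUSG00000028031, plus strand, chr3:132085292-132180304, 4 exons) encodes a secreted protein that binds Lrp5 and Lrp6. It was 0.293, 0.288, 0.234, 0.313 and 0.169 FPKM in the IncPBF lungs and 0.0602, 0.0860, 0.0574, 0.0282 and 0.0310 FPKM in the sham lungs. Every IncPBF lung was above every sham lung, on 13 to 21 fragments per IncPBF lung and 2 to 6 per sham lung. The ratio of the means was 4.94 (exact two-sided permutation p = 0.00794). Without the expression minimum, limma gave a log2 difference of 1.23 (adjusted p = 0.00261) on the scale with the pseudocount. In limma-voom on the fragments of the 23060 genes with a mean of at least 1 fragment, a test chosen after the data were seen, the log2 difference was 2.27 (SE 0.40, adjusted p = 0.000606), beside 24.0% of genes called there.

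Rspo3 (minus strand, chr10:29452416-29535867), an R-spondin that strengthens Wnt signals by keeping receptors on the cell surface, was 0.385, 0.294, 0.280, 0.319 and 0.592 FPKM in the IncPBF lungs. In the sham lungs it was 0.307, 0.344, 0.12035, 0.237 and 0.167 FPKM. IncPBF lungs 1 and 5 were above all sham lungs, and the other 3 lay within their range. With 7 to 38 fragments per lung, the exact two-sided permutation test gave p = 0.0794. Without the expression minimum limma gave a log2 difference of 0.51 (adjusted p = 0.292), and limma-voom gave a log2 difference of 0.78 (SE 0.32, adjusted p = 0.0977).

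Its relative Rspo2, which was not among the 10 genes, was 2.28, 2.08, 2.32, 2.30 and 2.72 FPKM in the IncPBF lungs and 0.163, 0.426, 0.353, 0.450 and 0.191 FPKM in the sham lungs. The groups were separated by more than the range of either one. The log2 difference was 2.61 (SE 0.22, limma adjusted p = 2.24e-05), and 2.56 with the Xist covariate (limma adjusted p = 0.00865). Only 0.195% of the genes tested had a difference at least as large in size. Rspo1 differed in the other direction, by -0.73 (limma adjusted p = 0.0390), with overlapping groups and an adjusted p of 0.0702 without sham lung 5. Under the Xist covariate it was -0.45 (limma adjusted p = 0.592). Of the 7 tested genes of the R-spondin axis 3 were called (42.9% beside 32.3% of all genes tested), the third being Lgr6, an R-spondin receptor that rose from 3.85 ± 1.43 to 6.99 ± 0.639 FPKM (SD, n = 5 each, limma adjusted p = 0.00541, and 0.128 with the Xist covariate).

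Other secreted antagonists were mostly under the expression minimum, and 3 of 10 could be tested. Of these, 2 were called (66.7% beside 32.3% of all genes tested), both higher, and 1 was not called. Wif1, which binds Wnt ligands outside the cell, rose from 6.61 ± 1.06 to 12.0 ± 1.26 FPKM (SD, n = 5 each), a log2 difference of 0.87 (limma adjusted p = 0.000205, and 0.0338 with the Xist covariate). Dkk3, an abundant and divergent member of the Dkk family, rose from 74.0 ± 7.36 to 98.8 ± 3.89 FPKM (log2 difference 0.42, limma adjusted p = 0.00130, and 0.0985 with the Xist covariate). Sfrp1 was thus lower while Wif1 and Dkk3 were higher in the IncPBF lungs. Dkk2 was also higher, but outside the main test and on 2 to 6 fragments per sham lung.

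The 2 target genes did not differ beyond the spread between lungs. Axin2 (ENSMUSG00000000142, plus strand, chr11:108920349-108950783) encodes a scaffold of the complex that degrades beta-catenin and is switched on by the pathway it restrains. It was 13.3, 13.2, 13.99, 11.9 and 13.7 FPKM in the IncPBF lungs and 13.4, 14.04, 13.1, 15.8 and 15.6 FPKM in the sham lungs. The groups overlapped, with sham lungs 4 and 5 above the rest. The log2 difference was -0.12 (95% interval -0.27 to 0.03, limma adjusted p = 0.203), on 1133 to 1668 fragments per lung.

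Lef1 (ENSMUSG00000027985, plus strand, chr3:131110471-131224356) encodes a TCF/LEF factor that is also a target. It was 1.97, 1.53, 1.78, 2.06 and 1.85 FPKM in the IncPBF lungs and 1.503, 1.67, 1.49, 1.68 and 1.97 FPKM in the sham lungs. High and low lungs were found in both groups. The log2 difference was 0.14 (95% interval -0.10 to 0.37, limma adjusted p = 0.374). With the Xist covariate the differences were -0.11 for Axin2 and 0.24 for Lef1, and neither was called (adjusted p = 0.678 and 0.514 in limma).

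Promoter windows of 250 bases before a RefSeq start (GRCm38.p6) were at hand for 6 of the 10 genes, 11 windows in all. They were searched on both strands for CTTTGA, the core letters of the TCF/LEF motif, and for the longer CTTTGAT that contains it. CTTTGA was in 2 of the 11 windows and in 13.8% of the 32851 windows of all genes, and CTTTGAT was in 1 and in 3.21%. The sequences show the first start of Axin2 and of Dkk2, which hold neither, and the internal starts of Lef1 and Wnt5b, which do. Capitals mark a match, written as TCAAAG where it lies on the other strand. No match in a window says nothing of sequence outside it.
Axin2, plus strand, chr11:108920099-108920348: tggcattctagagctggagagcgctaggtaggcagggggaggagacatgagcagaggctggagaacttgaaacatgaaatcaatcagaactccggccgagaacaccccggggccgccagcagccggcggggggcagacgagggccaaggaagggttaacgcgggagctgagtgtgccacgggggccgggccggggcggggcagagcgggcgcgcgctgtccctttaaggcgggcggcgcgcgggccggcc
Dkk2, plus strand, chr3:132085042-132085291: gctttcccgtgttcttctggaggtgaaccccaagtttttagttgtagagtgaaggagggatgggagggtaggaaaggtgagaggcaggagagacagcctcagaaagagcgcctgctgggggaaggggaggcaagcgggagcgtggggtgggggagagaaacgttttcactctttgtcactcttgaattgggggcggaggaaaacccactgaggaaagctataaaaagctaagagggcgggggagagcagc
Lef1, plus strand, internal start, chr3:131156044-131156293: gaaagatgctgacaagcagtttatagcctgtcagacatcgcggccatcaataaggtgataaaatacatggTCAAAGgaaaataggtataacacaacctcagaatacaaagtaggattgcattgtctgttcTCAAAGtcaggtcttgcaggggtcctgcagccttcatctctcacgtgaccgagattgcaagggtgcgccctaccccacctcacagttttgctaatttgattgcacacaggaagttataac
Wnt5b, minus strand, internal start, chr6:119449387-119449636: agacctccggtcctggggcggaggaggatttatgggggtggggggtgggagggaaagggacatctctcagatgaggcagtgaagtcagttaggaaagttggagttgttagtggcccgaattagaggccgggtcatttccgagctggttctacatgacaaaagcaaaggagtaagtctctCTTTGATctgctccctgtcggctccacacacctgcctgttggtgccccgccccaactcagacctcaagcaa

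The Lef1 window holds 2 matches and lies inside the gene, and neither Lef1 nor Wnt5b was called. Dkk2, whose groups did not overlap, and Axin2, whose groups did, have no match in the windows shown.

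Of the 10 other feedback and target genes tested 7 were called, 4 higher and 3 lower, or 70.0% beside 32.3% of all genes tested. With the Xist covariate 3 of the 10 were called, beside 4.82% of all genes tested. Cd44, a hyaluronan receptor and a reported target, rose from 19.3 ± 2.65 to 36.2 ± 1.87 FPKM (SD, n = 5 each), a log2 difference of 0.91 (limma adjusted p = 3.44e-05, and 0.00987 with the Xist covariate). Tnfrsf19 rose from 25.0 ± 1.17 to 35.6 ± 2.55 FPKM (limma adjusted p = 0.000125, and 0.0115 with the covariate). Myc, a growth regulator, differed by 0.61 (adjusted p = 0.00104, limma) and Ccnd1, the cyclin of the early cell cycle, by 0.19 (adjusted p = 0.0204). Neither was called with the covariate (adjusted p = 0.0504 and 0.144 in limma).

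Nkd1 and Nkd2, inhibitors that bind Dishevelled and are induced by the pathway, were lower in the IncPBF group. Nkd2 was 2.72, 3.28, 2.96, 2.59 and 2.96 FPKM in the IncPBF lungs and 5.38, 4.76, 4.88, 4.43 and 5.31 FPKM in the sham lungs. The groups did not overlap, and the log2 difference was -0.75 (SE 0.08, limma adjusted p = 8.08e-05, and 0.0128 with the Xist covariate). Nkd1 fell from 46.0 ± 4.29 to 36.0 ± 1.91 FPKM (SD, n = 5 each, limma adjusted p = 0.00273, and 0.0951 with the covariate). Kremen1, a receptor of Dkk proteins, fell by 0.33 on the log2 scale (limma adjusted p = 0.00715, and 0.224 with the covariate). The feedback and target genes of this list therefore did not share a direction: Cd44, Tnfrsf19, Myc and Ccnd1 were higher and Nkd1, Nkd2 and Kremen1 lower. The other 3 tested genes of the list were not called, and neither were the targets Axin2 and Lef1.

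**Figure D3:**
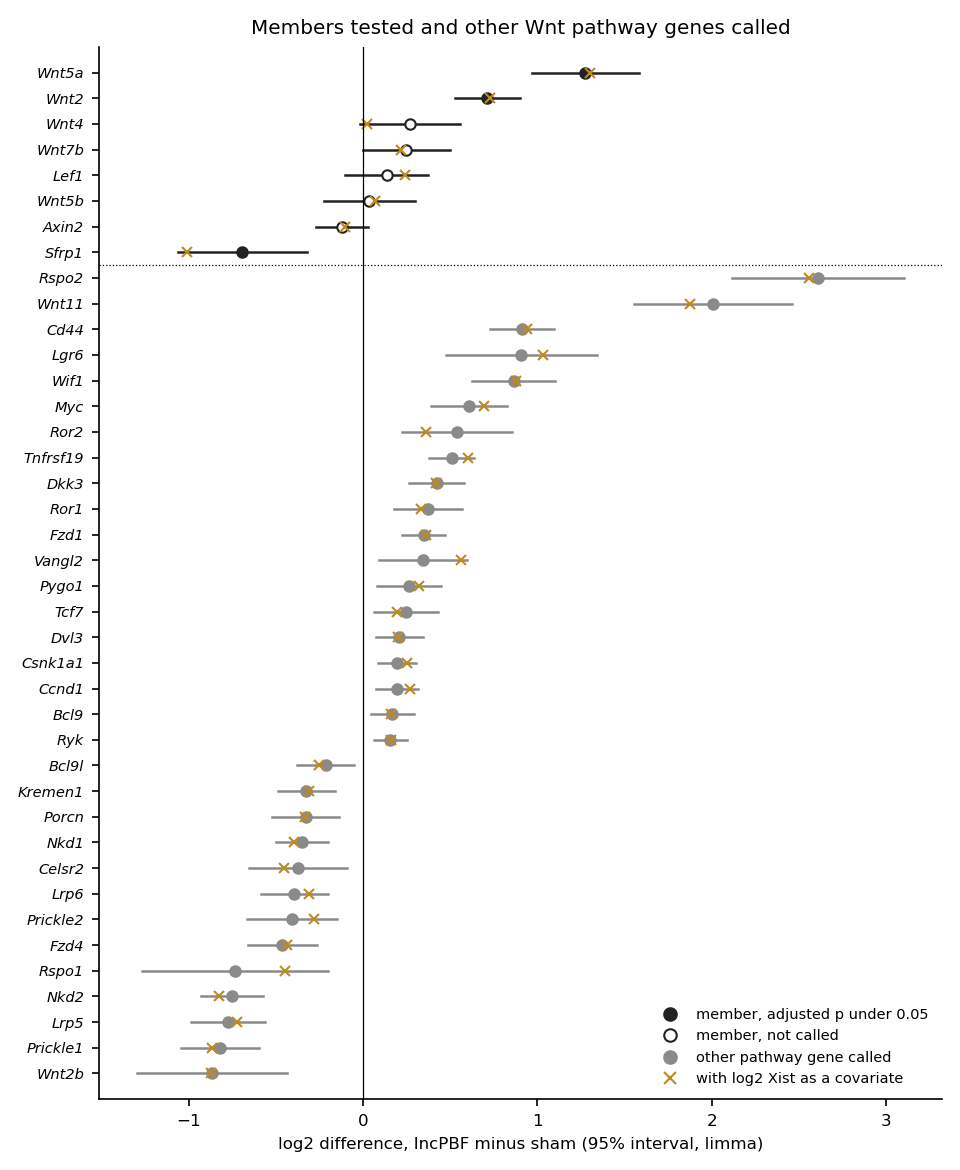
Log2 difference, IncPBF minus sham, with its 95% interval from limma, for the 8 tested Wnt genes of the main list (black, open where not called) and for the 32 other Wnt pathway genes that were called (gray), with the value under the Xist covariate as a cross. Rspo2 at 2.61 and Wnt11 at 2.01 lie farthest to the right, Wnt2b at -0.86 farthest to the left, and every cross is on the same side of 0 as its point, that of Wnt4 at 0.02.

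On the receiving side, the coreceptors and alternative receptors were called in 5 of 6 genes, or 83.3% beside 32.3% of all genes tested. Lrp5 fell from 27.3 ± 4.1995 to 15.8 ± 1.01 FPKM (SD, n = 5 each), a log2 difference of -0.77 (limma adjusted p = 0.000202, and 0.0427 with the Xist covariate). Lrp6 fell by 0.39 on the log2 scale (limma adjusted p = 0.00626). Ror1 and Ror2, receptors of Wnt5a, and Ryk differed by 0.37, 0.54 and 0.16 (adjusted p = 0.00878, 0.0148 and 0.0180 in limma). Thus the coreceptors of the beta-catenin branch were lower and the alternative receptors higher, but of the 5 genes only Lrp5 was called with the Xist covariate, where the adjusted p of the other 4 was 0.270 to 0.445 in limma. Ptk7 was 38.5 ± 4.01 FPKM against 34.2 ± 2.62 FPKM and was not called.

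Of the 8 tested Frizzled receptors 2 were called (25.0% beside 32.3% of all genes tested), in opposite directions. Fzd1 rose from 36.9 ± 2.31 to 47.0 ± 2.39 FPKM and Fzd4, a receptor used in blood vessels, fell from 37.9 ± 5.46 to 27.2 ± 1.23 FPKM (SD, n = 5 each, limma adjusted p = 0.00102 and 0.00294). Neither was called with the covariate (adjusted p = 0.0733 and 0.160 in limma). Among the genes of ligand release, Porcn, the enzyme that attaches the lipid to Wnt proteins and lies on the X chromosome, fell by 0.33 on the log2 scale (limma adjusted p = 0.0151, and 0.262 with the covariate). Wls, the carrier of Wnt proteins to the cell surface, was 24.5 ± 1.01 FPKM in the IncPBF lungs and 23.7 ± 1.56 FPKM in the sham lungs and was not called (limma adjusted p = 0.559).

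Inside the cell the differences were small. Ctnnb1, which encodes beta-catenin, was 158 ± 9.52 FPKM in the IncPBF lungs and 159.8 ± 15.4 FPKM in the sham lungs, a log2 difference of -0.01 (limma adjusted p = 0.931). Of the 9 genes of the cytoplasmic pathway 2 were called (22.2% beside 32.3% of all genes tested), Csnk1a1 and Dvl3, at 0.19 and 0.21 on the log2 scale. Of the 7 other TCF/LEF factors and partners in the nucleus 4 were called (57.1% beside 32.3% of all genes tested). They were the factor Tcf7 at 0.25, Bcl9 at 0.17, Pygo1 at 0.26 and Bcl9l at -0.21. None of these 4 had groups apart, beside 23.2% of all genes tested. Without sham lung 5, 2 were called, since Bcl9 and Bcl9l were lost (limma adjusted p = 0.0857 and 0.0895). Each of the 4 was called in at most 3 of the 10 fits that left out 1 lung. With the Xist covariate no gene of either list was called, beside 4.82% of all genes tested. The adjusted p of these 6 genes was then 0.127 to 0.490 in limma.

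In the planar cell polarity list 4 of 6 tested genes were called, or 66.7% beside 32.3% of all genes tested. Prickle1 was 25.8, 32.1, 25.8, 22.0 and 31.3 FPKM in the IncPBF lungs and 46.8, 52.0, 43.0, 47.1 and 51.9 FPKM in the sham lungs. The groups did not overlap, and the log2 difference was -0.82 (SE 0.10, limma adjusted p = 0.000195, and 0.0276 with the Xist covariate). Prickle2 and Celsr2 fell by 0.41 and 0.37 on the log2 scale and Vangl2 differed by 0.34 (adjusted p = 0.0223, 0.0431 and 0.0409 in limma), all with overlapping groups. Without sham lung 5, Prickle2 and Celsr2 were no longer called (limma adjusted p = 0.0524 and 0.0975), which left 2 of the 6. Prickle2, Celsr2 and Vangl2 had adjusted p values of 0.482, 0.287 and 0.124 in limma with the Xist covariate.

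Of the 85 other pathway genes in all roles, 65 were tested and 32 were called, 19 higher and 13 lower, which is 49.2% beside 32.3% of all genes. The median difference was 0.05 and the median size 0.20, beside 0.01 and 0.20 over all genes tested. When every lung was scaled to an equal total, the split became 24 higher and 10 lower, and that over all genes went from 2480 higher and 2490 lower to 3559 and 1782. With the Xist covariate 8 of the 65 remained called, beside 4.82% of all genes tested. They were Wnt11, Rspo2, Wif1, Cd44 and Tnfrsf19, which were higher, and Lrp5, Nkd2 and Prickle1, which were lower. Without sham lung 5, 27 of the 65 were called, beside 4081 of all 15388 genes tested.

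**Figure D4:**
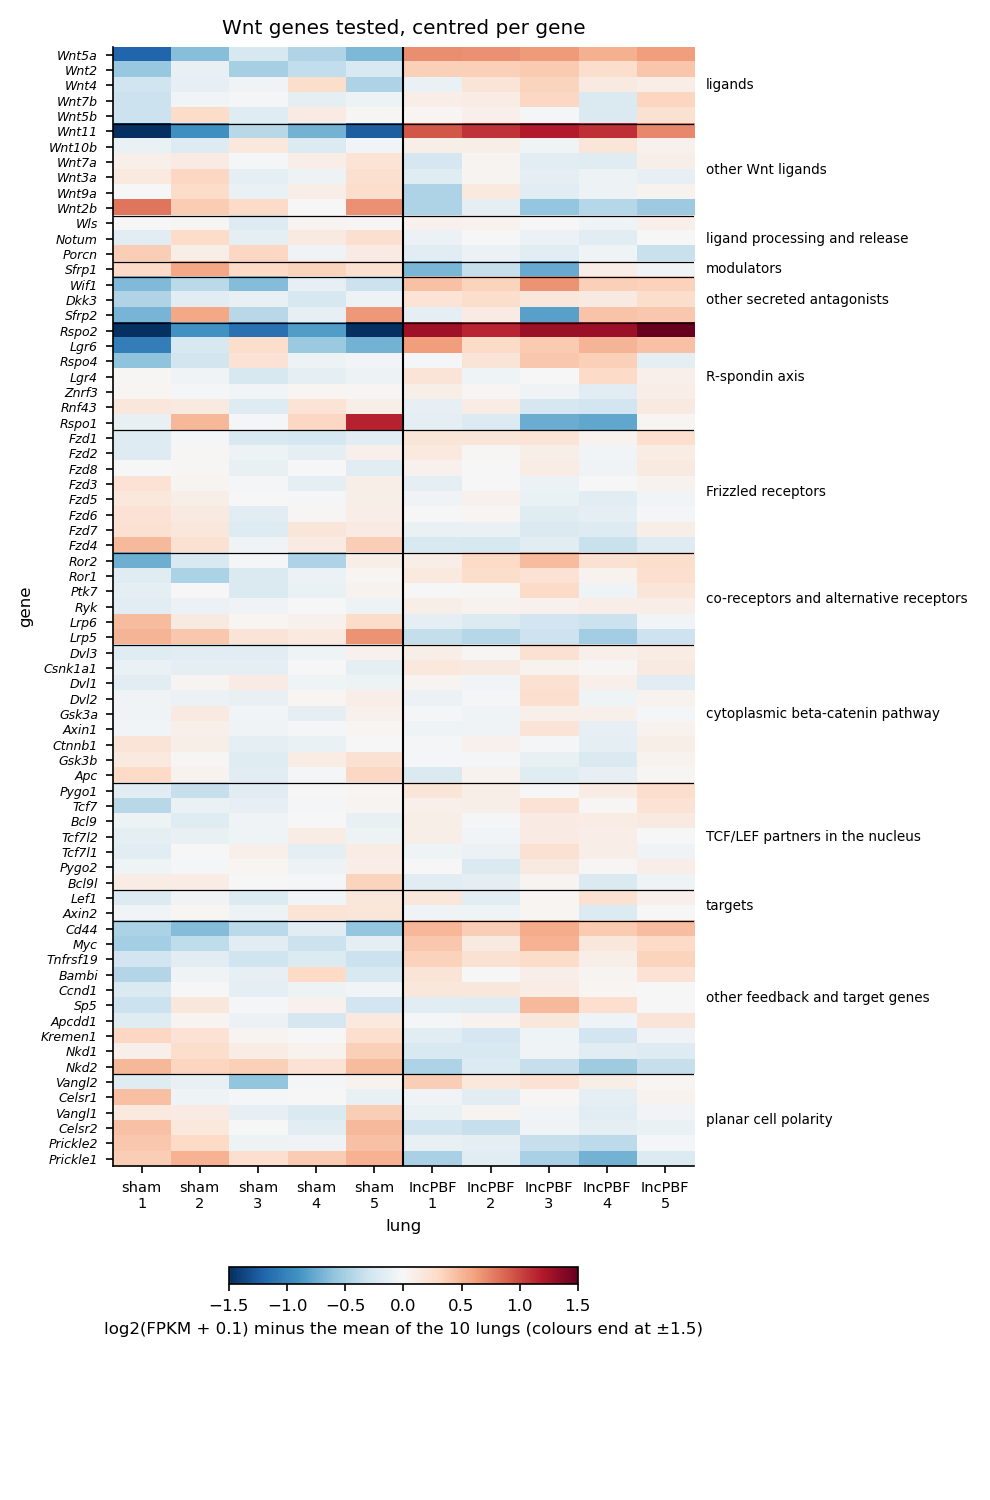
Log2(FPKM + 0.1) of the tested Wnt genes, 8 of the main list and 65 others, in each lung minus the mean of the 10 lungs, with genes grouped by role and colors ending at ±1.5. Wnt5a, Wnt11 and Rspo2 are lower in all 5 sham lungs than in any IncPBF lung, and the rows of Axin2, Lef1 and Ctnnb1 show no split between the groups.

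Marker RNA of several cell types also differed between the groups, and its part in the Wnt results was not tested. Beside the counts that follow, 16.1% of all genes tested were called higher and 16.2% lower, and 4.82% in either direction with the Xist covariate. Smooth muscle markers were higher in 4 of 6 genes, with sums of 313 to 608 FPKM in IncPBF lungs against 112 to 246 FPKM in sham lungs. Of 8 myofibroblast markers 5 rose and 2 fell, with sums of 540 to 657 against 261 to 430 FPKM. Pdgfra, a defining marker on that list, fell from at least 44.3 FPKM in every sham lung to at most 26.3 FPKM in every IncPBF lung, while Tnc and Tgfbi rose by 2.19 and 1.97 on the log2 scale (limma adjusted p = 5.47e-05 and 0.000110). None of the smooth muscle markers and 5 of the myofibroblast markers, 4 of them higher, were called with the Xist covariate.

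Alveolar fibroblast markers were lower in 4 of 5 genes (555 to 707 against 978 to 1528 FPKM). Alveolar type 1 markers were lower in 7 of 8, alveolar type 2 markers in 4 of 8, and endothelial markers in 4 of 8, the last with sums of 1021 to 1091 against 1040 to 1358 FPKM. The 4 markers of cycling cells were all higher, with sums of 29.8 to 35.9 against 11.0 to 19.7 FPKM, beside Myc and Ccnd1. Under the Xist covariate 1 alveolar fibroblast and 2 cycling cell markers were called, and no alveolar type 1, alveolar type 2, endothelial, mesothelial, erythroid, adventitial fibroblast or pericyte marker. Mesothelial markers were lower in all 3 genes tested and erythroid ones in all 3, adventitial fibroblast markers were higher in 2 of 6, and pericyte markers were lower in 2 of 6. Mesothelial sums were 19.5 to 43.4 FPKM in IncPBF lungs and 38.5 to 98.0 FPKM in sham lungs. Erythroid sums were 112 to 792 against 695 to 1038 FPKM. No mesothelial or erythroid marker had groups apart, and without sham lung 5 each list had 2 called. No airway secretory, ciliated, macrophage, lymphocyte or cardiac marker was called. Their defining markers were above 0 in every lung except Ccdc153 of ciliated cells and Myh6 of cardiac muscle, each listed at 0 in at least 1 lung.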

How the data were processed

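Total RNA of 10 mouse lungs was sequenced (5 IncPBF, 5 sham). The deposited table gives FPKM per gene and lung, which the authors computed from mapped fragments, with gene length and coordinates. The submitters' processing notes list Bowtie 0.12.2 and the builds hg38, GRCm38 and mm10 without their roles; the counting software is not given in the sources used here. Of the 54409 genes shared with GENCODE M21 (GRCm38), 98.3% had the same position and strand. IncPBF columns are named differently from the titles of the samples, so each was matched to its group but to no single sample, and lung numbers are column numbers.

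FPKM times gene length was a whole multiple (within 0.02) of 1 step per lung for 100% of values, which gave the fragments per gene. A fragment on a gene of 1 kb was worth 0.0482 to 0.0580 FPKM. The library size this implies was 1.02 to 1.07 times the fragments on genes in IncPBF lungs and 0.958 to 1.03 times in sham lungs. The median log2 difference over all genes tested was 0.0145 on the deposited scale and 0.0922 with an equal total per lung. That of Axin2 was -0.12 and -0.04. Fragments carry no molecular identifiers, and counts of fragments cover counting error only.

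limma 3.58.1 (lmFit, eBayes with trend, no covariates) in R 4.3.3 compared log2(FPKM + 0.1) of genes with a mean of at least 0.5 FPKM. The pseudocount lowers the differences of weakly expressed genes. Single genes were also compared by exact two-sided permutation of FPKM. The test was also run on simulated counts, with the same spread setting for every gene, no sex difference and no outlying lung. That setting is simpler than these lungs, so it does not show how the test performs on them. Python 3.11.15, pandas 2.3.3 and matplotlib 3.10.9 were used for summaries and figures, and promoter sequences are from RefSeq.

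The Wnt genes, the pathway and marker lists and the tests were chosen with earlier results of these data known. Named were the 10 Wnt genes, pathway genes that were called or among the 2 most abundant of their role, marker genes with their list, Xist, and the 3 genes closest in profile to each of the 2 Wnt genes with the smallest p. Alternatives were the pseudocount (1 or 0.01), the filter (1 FPKM or none), 3 scalings, eBayes without trend, a permutation test per gene, limma-voom on fragments, log2 Xist as a covariate, the lungs without Xist (under 1 FPKM), the lung number as a block, and each lung left out. limma-voom on genes with a mean of at least 1 fragment was added after the data were seen. Batch, litter and date of surgery are not in the labels and were not tested.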

Additional observations from a re-analysis of the deposited data

Results flagged for a closer look

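Groups of 5 lungs were checked for the genes of the main list and the named pathway genes, most of them named because they were called. Among these 96 groups, 3 had 1 lung far from the other 4, where chance gives about 4.8. The chance figure takes no account of how the genes were chosen. Wls was 20.97 FPKM in sham lung 3 and 24.2 to 24.8 FPKM in the other sham lungs. Wif1 was 14.2 FPKM in IncPBF lung 3 and 11.2 to 12.1 FPKM in the other IncPBF lungs, all above the sham lungs. Csnk1a1 was 46.5 FPKM in sham lung 4 and 41.9 to 43.1 FPKM in the other sham lungs. The pathway genes outside that set were not checked, so the count does not cover the full lists. Among those unchecked genes, Celsr1 was 3.51 FPKM in sham lung 1 and 2.34 to 2.54 FPKM in the other sham lungs.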

How the results depend on the processing

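The differences of Wnt5a and Wnt2 kept their direction and size under every alternative run (1.14 to 1.37 and 0.66 to 0.80 on the log2 scale) and were called in all but the comparison of the 1 IncPBF lung and 5 sham lungs without Xist, in which the lone lung is assumed to vary like the others. There limma called 0 of the 8 Wnt genes (3 at an unadjusted p under 0.05), 1 pathway gene (Prickle1) and 154 genes in all; log2 Xist as a covariate left 8 pathway genes and 741 in all. The former has fewer lungs by construction. With log2 Xist as a covariate the SE of Wnt5a was 0.249 against 0.139, and that of Dkk3 0.129 against 0.0712. The difference of Dkk3 was 0.42 in both fits, that of Fzd1 0.35 and then 0.36, and that of Wnt4 0.27 and then 0.02. Dkk3 and Fzd1 thus lost their call with a nearly unchanged difference and a wider SE. Other genes that lost their call had a smaller difference under the covariate, as Rspo1 (-0.73 and then -0.45) and Ror2 (0.54 and then 0.36). In others it was larger in size, as in Lgr6 (0.91 and then 1.03) and Sfrp1 (-0.69 and then -1.01). The cause of the lower counts was not tested. Sfrp1 ranged from -1.04 to -0.45, the latter with a pseudocount of 1. Wnt5b ranged from -0.040 to 0.11 with each lung left out, and was below 0 without IncPBF lung 5, sham lung 1 or sham lung 3. With each lung left out, 3 to 4 Wnt genes, 23 to 34 pathway genes and 3869 to 5234 genes in all were called. limma-voom on genes with a mean of at least 1 fragment called 5 Wnt genes, among them Dkk2 and Wnt7b. Of the 35 Wnt and pathway genes called, 30 were also called without sham lung 5. The lung number as a replicate block gave 3 Wnt genes, 29 pathway genes (32 of the 35 shared) and 4872 genes in all; deviations of same-numbered lungs correlated at -0.07 to 0.09, and 2 of 10 lungs were closest to their own number, so the numbers were not taken as pairs. Depth limits Dkk2 and Rspo3, at 2 to 38 fragments per lung.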
